A study of Mus musculus with 4 samples.

Results

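The T cell receptor beta and gamma loci hold the gene segments from which the beta and gamma chains of the T cell receptor are assembled. The segments were taken by symbol from RefSeq annotation of GRCm38.p6, which corresponds to mm10: Trbv, Trbd, Trbj and Trbc on chromosome 6, and the Trg V, J and C segments on chromosome 13. This gave 68 of the 49943 genes annotated on assembled chromosomes, 53 in the beta locus and 15 in the gamma locus. The regions described are the 37 of 64525 accessible regions in the deposited list that overlapped either locus or the 50 kb on either side of it. ATAC-seq, which finds open chromatin by where a transposase can insert sequencing adapters, had been performed on naive CD4+ T cells from spleen and pLN of WT mice (2 libraries) and of mice labelled DDX55 KO (2 libraries). Ddx55 encodes a DEAD-box RNA helicase. The labels give no age, strain, knockout design or treatment, and do not say whether the libraries of a genotype came from separate animals. The list pools all 4 libraries and gives only the position of each region, so levels per library, their spread and the difference between genotypes were not analysed here, and nothing below was tested.

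A beta chain gene is made in the thymus by joining a D segment to a J segment and then a V segment to the joined DJ, by the Rag recombinase, which acts on accessible chromatin. The DNA between joined segments is usually lost, so mature T cells carry different remainders of the germline locus. In the mouse beta locus 2 clusters of D, J and C segments follow a long array of V segments, and Trbv31 lies inverted beyond Trbc2; the promoter of germline Trbd1 lies just before that segment, and the enhancer of the locus lies between Trbc2 and Trbv31. The gamma locus is built of 4 units, each with its own C segment, and its chain is displayed by gamma delta T cells, a lineage separate from CD4+ T cells. Blocks of trypsin genes, which encode digestive proteases of the pancreas, lie within the beta locus on both sides of the main V array.

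Regions of the beta locus gathered at the V array and at the D, J and C clusters. The lower trypsin block, between Trbv1 and Trbv2, held 1 region, and the upper block, between Trbv30 and Trbd1, held 0. The sequence tables held no entry for any of the 68 segments, so the sequences shown are promoters of neighbouring genes (RefSeq, GRCm38.p6, 250 bases before to 50 after the start, 5′ to 3′). They contrast a trypsin promoter inside the beta locus that had no region with a promoter in the upper flank of each locus that lay wholly inside a region. Capitals mark CG pairs, the only motif searched, which read the same on both strands; 94.6% of the 32851 promoters in the table hold at least 1.
Prss2: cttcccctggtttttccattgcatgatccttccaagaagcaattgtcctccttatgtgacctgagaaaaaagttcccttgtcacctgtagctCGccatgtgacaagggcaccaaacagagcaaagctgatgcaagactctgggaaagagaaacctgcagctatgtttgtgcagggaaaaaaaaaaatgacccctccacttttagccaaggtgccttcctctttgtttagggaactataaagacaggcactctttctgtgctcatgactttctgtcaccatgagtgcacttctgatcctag
Ephb6: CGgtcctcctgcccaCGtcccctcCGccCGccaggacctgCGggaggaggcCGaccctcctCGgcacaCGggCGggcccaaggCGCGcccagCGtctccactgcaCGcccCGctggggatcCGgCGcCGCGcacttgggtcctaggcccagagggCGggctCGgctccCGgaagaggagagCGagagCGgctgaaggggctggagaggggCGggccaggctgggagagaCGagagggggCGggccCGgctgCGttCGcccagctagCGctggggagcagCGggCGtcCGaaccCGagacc
Gm40827: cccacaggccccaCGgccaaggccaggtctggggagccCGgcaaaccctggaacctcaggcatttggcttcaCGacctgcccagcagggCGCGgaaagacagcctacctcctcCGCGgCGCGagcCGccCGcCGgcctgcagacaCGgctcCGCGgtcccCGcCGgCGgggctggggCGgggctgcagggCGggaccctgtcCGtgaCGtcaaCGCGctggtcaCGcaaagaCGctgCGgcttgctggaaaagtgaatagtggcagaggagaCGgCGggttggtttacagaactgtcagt
Prss2, the trypsin gene next to Trbd1 (chr6:41521526-41521825, plus strand), held 1 CG pair, and the nearest region lay 10.6 kb away. Ephb6, which encodes a kinase-dead ephrin receptor (chr6:41605261-41605560, plus strand), held 34. Gm40827, a long noncoding RNA gene that starts beside the upper-coordinate bound of Stard3nl (chr13:19395597-19395896, plus strand), held 29. Promoters overlapped by a region had a median of 22 CG pairs and the others a median of 4. The 3 sequences were chosen after their values were seen and support nothing about that difference. The 10 promoters in the table from inside the beta locus, none overlapped by a region, held 0 to 8 CG pairs, the most at 1700074P13Rik. The promoters of Moxd2, below Trbv1, and of Gm31887, at the gamma locus, are not shown. They had no region either, and each held 0 CG pairs.

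The beta segments spanned chromosome 6, 40891296 to 41558371, or 667 kb. There were 24 regions inside these bounds and 1 in the flanks, a density of 3.26 regions per 100 kb over the locus with its flanks. Consecutive autosomal windows of the same length had a median of 17 regions (lower and upper quartiles 11 and 27, 3121 windows) against 25 here, so the number itself was not unusual. Regions covered 1.53% of the locus with flanks, and their median width was 364 bp, against 294 bp over the whole list. Their placement was uneven. The 26.2 kb from 1 kb before Trbd1 to Trbv31 held 7 regions. The main V array, 236 kb around Trbv2 to Trbv30, held 15, all of them in the part from Trbv2 to Trbv23. The lower trypsin block between Trbv1 and Trbv2 held 1 in 154 kb. The remaining region inside the locus lay at Trbv1, 689 bp wide.

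**Figure D1:**
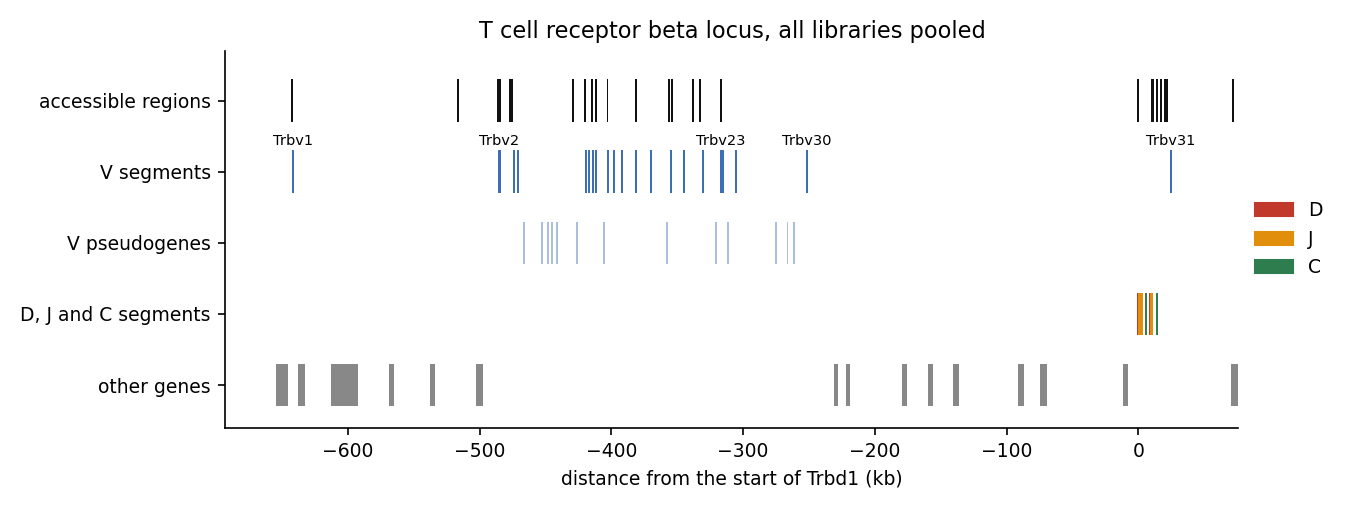
Map of the beta locus. The x axis is the distance from the start of Trbd1 in kb; each bar is an accessible region of the pooled list, a gene segment or a protein-coding or long noncoding gene, drawn at least 1.5 kb wide so that short items can be seen. The longest stretch without a region, 316 kb, runs from Trbv23 to Trbd1.

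Of the 53 beta segments 21 had a region within 1 kb (39.6%, 95% exact binomial interval 26.5 to 54.0%). The same was true of 9.85% of 4537 other genes as long as a V segment (280 to 800 bp). It was true of 7.08% of consecutive autosomal windows as long as a V segment with 1 kb on either side. D and J segments are shorter and C segments longer than these, so neither background is matched to them. Of all 49875 other genes 43.4% had a region within 1 kb, and they include far longer ones that meet more regions by their length. Intervals cover counting error over segments only, and neighbouring segments can share a region: the 21 segments met 14 regions. Regions overlapped 13 segments directly. Just inside the limit of 1 kb was Trbj1-2 with a region 0.793 kb away, and just outside it were Trbj1-3 at 1.11 kb and Trbd2 at 1.24 kb.

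**Figure D2:**
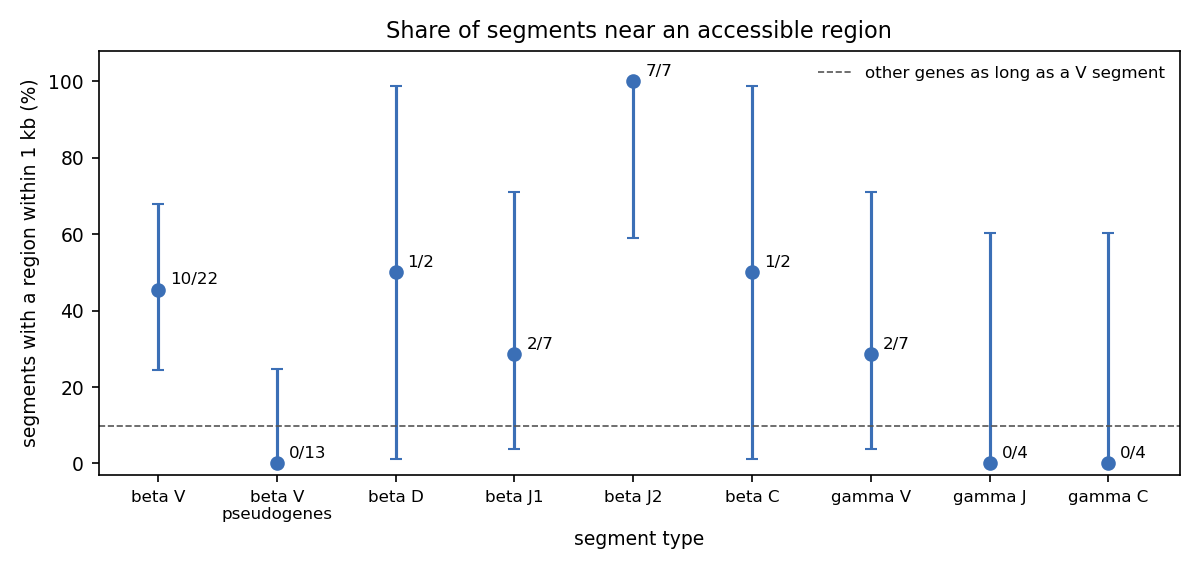
Share of segments with an accessible region within 1 kb, by segment type. Points are percentages with 95% exact binomial intervals, and the numbers beside them count segments with a region of all segments of that type. The dashed line is the 9.85% of other genes as long as a V segment. D and J segments are shorter and C segments longer than those genes, so the line is no matched background for them. The 7 beta J2 segments all had a region nearby, and none of the 13 beta V pseudogenes did.

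V segments encode most of the variable domain that contacts antigen, and 10 of 35 in the beta locus had a region within 1 kb. All 10 were among the 22 V segments that RefSeq does not class as pseudogenes (45.5%, 95% exact interval 24.4 to 67.8%). Of the 13 V pseudogenes 0 had one (exact interval 0 to 24.7%), with nearest regions 1.44 to 55.1 kb away. Position moved with this difference: 4 of the 13 pseudogenes lay among Trbv24 to Trbv30, where none of the 3 other V segments had a region either. Among Trbv2 to Trbv23 the counts were 9 of 17 for the other V segments and 0 of 9 for the pseudogenes. Trbv23 is the last V segment of the main array with a region, so this cut follows from the calls themselves. The absence of regions among Trbv24 to Trbv30 was fixed by it, and the split is no check on position. Pseudogenes also sat together: Trbv6 to Trbv10 lie, with Trbv4 and Trbv5, in a single stretch of 46.4 kb without a region, so they are not independent observations. Joining usually removes the V segments between the joined V segment and the D segments, and their copy number here is not known. Counts along the array are therefore not ones of accessibility alone. The part of position in the difference was not tested further.

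The 10 V segments with a region differed in where it lay. A region of 689 bp (40890723 to 40891411) began 573 bp before the start of Trbv1 and reached 116 bp into it. At Trbv12-1 a region of 581 bp (41112999 to 41113579) began 568 bp before the segment and covered its first 13 bp. Trbv12-2, of the same subfamily, had one of 479 bp (41118323 to 41118801) that ended 62 bp before it. These 3 regions thus lay mainly on the lower-coordinate side of the segment, which is the promoter side for V segments that, like those of the main array, point towards the D and J clusters; the gene table itself gives no strand. Trbv2 had a region of 528 bp (41046612 to 41047139) on that side, 0.416 kb away, and another on the upper side at 0.242 kb, which belonged to Trbv3.

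At the other V segments the region lay over the segment body. Trbv3 was covered over 423 bp of its 431 bp by a region of 579 bp (41048238 to 41048816), and Trbv13-3 over 302 bp of 439 bp by one of 310 bp (41130139 to 41130448). The region at Trbv23 (418 bp, 41215908 to 41216325) began 165 bp before the segment and covered 253 bp of it. Trbv16 and Trbv19 each held a region wholly inside the segment, 175 bp wide (41151939 to 41152113) and 303 bp wide (41178741 to 41179043). Trbv13-2 was met from the upper side, by a region of 354 bp (41121609 to 41121962) that ended 130 bp past it. Of all 11 pairs of a beta V segment and a region within 1 kb, 5 had a region that spanned the lower end of the segment, and the 10 regions in these pairs had a median width of 448.5 bp. Trbv12 and Trbv13 subfamily members are similar in sequence, and the sources do not say how reads that fit more than 1 of them were handled. Calls at these segments are therefore uncertain as to the member.

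The 12 remaining V segments not classed as pseudogenes had no region within 1 kb. The nearest were Trbv4 at 1.70 kb, Trbv24 at 1.76 kb, Trbv13-1 at 1.85 kb, Trbv21 at 2.12 kb and Trbv31 at 2.62 kb. Trbv14 and Trbv5 had theirs 4.72 and 4.62 kb away, and Trbv20 5.72 kb away. Trbv15, Trbv17 and Trbv26 lay 10.3 to 11.2 kb from a region. Trbv30, the last V segment before the upper trypsin block, was the farthest of all 35 at 65.0 kb. The distances of the 7 segments from Trbv24 to Trbv30 grew in step along the chromosome because all were measured to the same region at Trbv23.

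**Figure D3:**
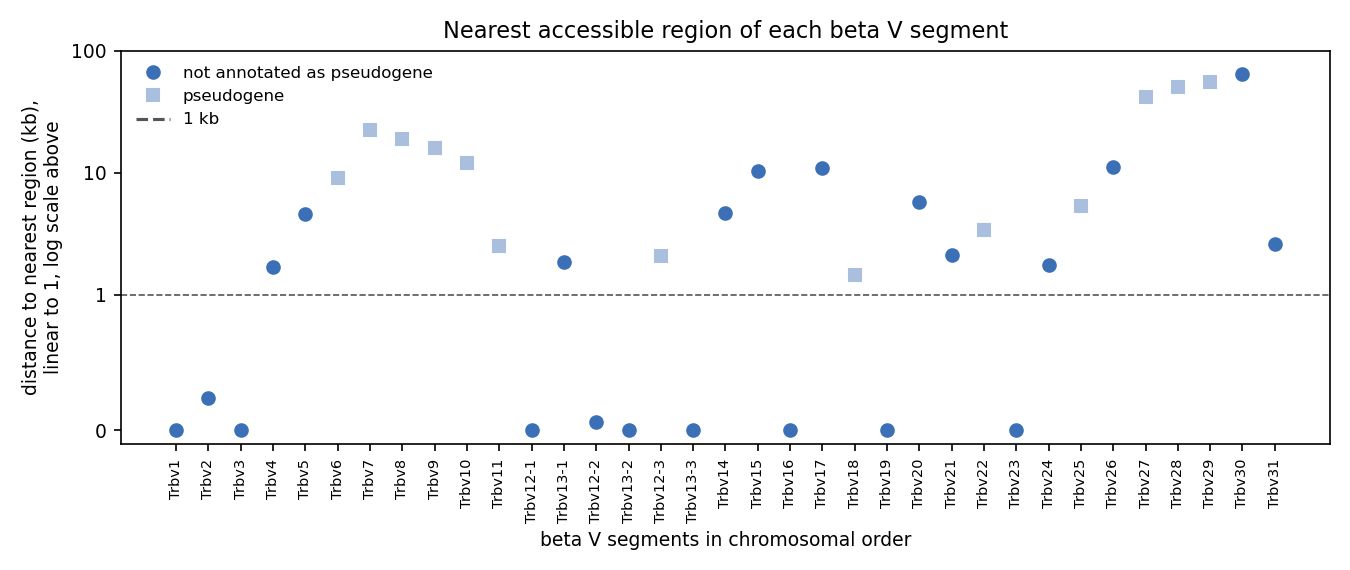
Distance from each beta V segment to the nearest accessible region, in kb on an axis that is linear to 1 kb and logarithmic above. Circles are V segments not annotated as pseudogenes, squares are pseudogenes and the dashed line is 1 kb; the 10 segments under the line are all circles, and the values climb to 65.0 kb at Trbv30.

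The V array also held regions that were not near a segment. A pair of 202 and 193 bp lay 3.36 and 1.70 kb before Trbv4. A region of 354 bp lay 1.19 kb before Trbv19. Regions of 393 and 289 bp lay between Trbv20 and Trbv21, and 1 of 129 bp lay 2.53 kb before Trbv11. The 203 bp region of the lower trypsin block was 30.8 kb from the nearest segment, Trbv2. With 3 regions beyond Trbc2, 10 of the 24 regions inside the beta locus lay more than 1 kb from any segment.

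D and J segments encode the junction of the receptor chain, and C segments encode its constant domain. In the first cluster a region of 764 bp (41532444 to 41533207) began 757 bp before Trbd1 and ended 5 bp short of the end of that 12 bp segment. It was the only region of the first cluster. Trbj1-1 and Trbj1-2 lay 0.656 and 0.793 kb past it, and Trbj1-3 to Trbj1-7 lay 1.11 to 2.43 kb past it, so 2 of 7 J1 segments had a region within 1 kb. Trbc1 (41538219 to 41539665) had none, with the nearest 3.75 kb away.

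The second cluster had regions over its J segments and none over its D segment. A region of 267 bp (41543418 to 41543684) covered Trbj2-5 and the pseudogene Trbj2-6 in full. Separated from it by 130 bp, a region of 1107 bp (41543815 to 41544921) began 5 bp into Trbj2-7 and ran 1065 bp into the interval before Trbc2; it was the widest region inside the beta locus. All 7 J2 segments had a region within 1 kb (95% exact interval 59.0 to 100%), but this count comes from 2 regions that the segments share. Trbd2 lay 1.24 kb below the first of them. Regions covered 26.9% of the 7.02 kb from 1 kb before Trbd2 to the end of Trbc2, against 10.2% of the 7.46 kb from 1 kb before Trbd1 to the end of Trbc1. Joining to a J2 segment usually removes DNA of the first cluster from that allele. The copy number of the clusters is not known, so these contrasts are not ones of accessibility alone.

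The constant segments differed, with a region inside Trbc2 and none at Trbc1. The region was 514 bp wide (41546964 to 41547477) and lay wholly inside Trbc2 (41546730 to 41548181). The coding parts of Trbc1 and Trbc2 are nearly identical, so reads can fit both, and the handling of such reads is not known. Trbc1 is also usually lost from alleles that joined a J2 segment, and the share of such alleles is not known. The absence of a region at Trbc1 therefore does not show that it was less accessible.

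Between Trbc2 and Trbv31, the interval that holds the enhancer, 3 regions covered 16.5% of 9.51 kb. They were 364 bp (41550199 to 41550562), 282 bp (41553376 to 41553657) and 923 bp wide (41554152 to 41555074). The first lay 2.02 kb past Trbc2, and the last lay 2.62 kb before Trbv31. The deposited list and the gene table do not mark the enhancer, so none of the 3 was matched to it. Past Trbv31 no region was found for 46.0 kb, up to one of 1312 bp (41604415 to 41605726) over Ephb6.

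**Figure D4:**
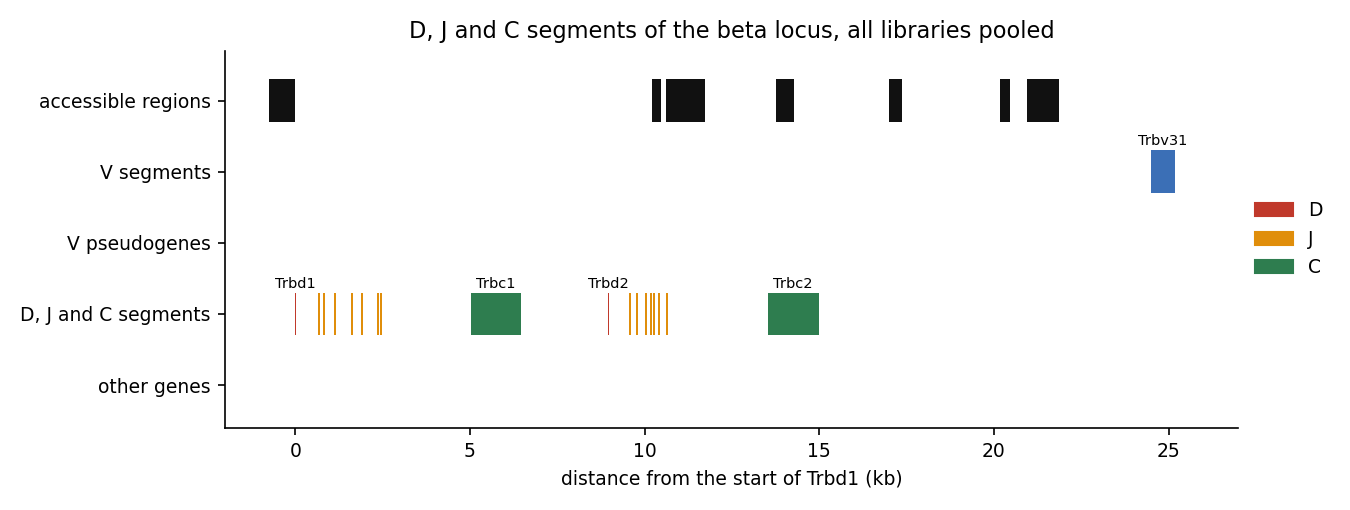
The D, J and C clusters of the beta locus to scale. The x axis is the distance from the start of Trbd1 in kb, black bars are accessible regions, and the lower lanes are gene segments, drawn at least 0.05 kb wide; the 7 regions lie before Trbd1, over the J2 segments, in Trbc2 and between Trbc2 and Trbv31, and no bar lies over Trbc1 or Trbd2.

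The trypsin blocks were nearly free of regions. None of the 13 protein-coding genes inside the beta locus had a region within 1 kb, against 67.6% of all 21887 protein-coding genes. Protein-coding genes as a whole include far longer ones, which meet more regions by their length. The distance to the nearest region was 3.85 to 48.2 kb for the 5 genes between Trbv1 and Trbv2 and 7.36 to 154.8 kb for the 8 between Trbv30 and Trbd1. The latter were Try4, Try5, Try10, Prss3, Gm5771, Gm10334, Prss1 and Prss2. Together with Trbv24 to Trbv30 they lay in the stretch of 316 kb without a region, from 41216325 to 41532444. Of 63282 stretches between neighbouring regions on autosomes, 318 (0.503%) were at least as long, and the median was 18.3 kb. These genes are tandem copies, and reads that fit several copies could have been dropped. The handling of such reads is not known. The upper block also lies between the main V array and the D segments, in DNA that joining usually removes. Its copy number in these cells is not known, so the comparison with other genes and stretches is not one of accessibility alone. On the lower side, Moxd2, just before Trbv1, had no region within 1 kb (3.23 kb), and the region at Trbv1 was the only one in the 50 kb below that segment.

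The gamma segments spanned chromosome 13, 19178042 to 19352343, or 174 kb. There were 7 regions inside these bounds and 5 in the flanks, or 4.37 per 100 kb with flanks. Autosomal windows of the same length had a median of 6 regions (quartiles 3 and 10, 8749 windows) against 12 here. Regions were narrow, with a median of 262 bp and a range from 158 to 1004 bp, and no region overlapped a gamma segment. Of 15 segments 2 had one within 1 kb, Trgv3 and Trgv2 (13.3%, 95% exact interval 1.66 to 40.5%). This share is near the 9.85% of other genes as long as a V segment, although the J and C segments differ in length from those genes. Among gamma V segments alone it was 2 of 7 (28.6%, 95% exact interval 3.67 to 71.0%), the same share as the 28.6% of 35 beta V segments. Neither count is a result about the gamma segments.

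Most regions of the gamma locus lay between its units. From Trgv7 to Trgc1 there was 1 region, and the other 3 units, each taken from its first to its last segment, held 0. In the unit of Trgc1, that region of 448 bp (19182233 to 19182680) lay between Trgv7 and Trgv4, 3.74 kb from the first and 2.30 kb from the second; it also overlapped the long noncoding RNA gene Gm31887. Trgv6 and Trgv5 were 7.69 and 9.60 kb from it. Past the C segment, a region of 265 bp (19219736 to 19220000) lay 3.12 kb beyond Trgc1, and Trgj1 was 9.33 kb from it. An enhancer is known downstream of this C segment; the files do not mark it, and the region was not matched to it.

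Just outside the unit of Trgc3, a region of 171 bp (19242423 to 19242593) lay 0.251 kb below Trgv3, while Trgj3 and Trgc3 were 14.5 and 10.6 kb from a region. Regions of 158 and 202 bp lay in the 41.7 kb between Trgc3 and Trgc2. At the edge of the unit of Trgc2, Trgv2 had regions of 223 bp (19337400 to 19337622) and 259 bp (19337990 to 19338248), the first 0.373 kb above it, both between Trgv2 and Trgv1. Trgj2 and Trgc2 lay in the longest stretch of the gamma locus without a region, 53.9 kb, at 26.1 and 21.5 kb from the nearest; 21.0% of autosomal stretches were at least as long. In the last unit, Trgv1 was 1.77 kb, Trgj4 3.90 kb and Trgc4 4.07 kb from a region. The C segments of the first 3 units are similar in sequence, which leaves the same uncertainty as at Trbc1.

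**Figure D5:**
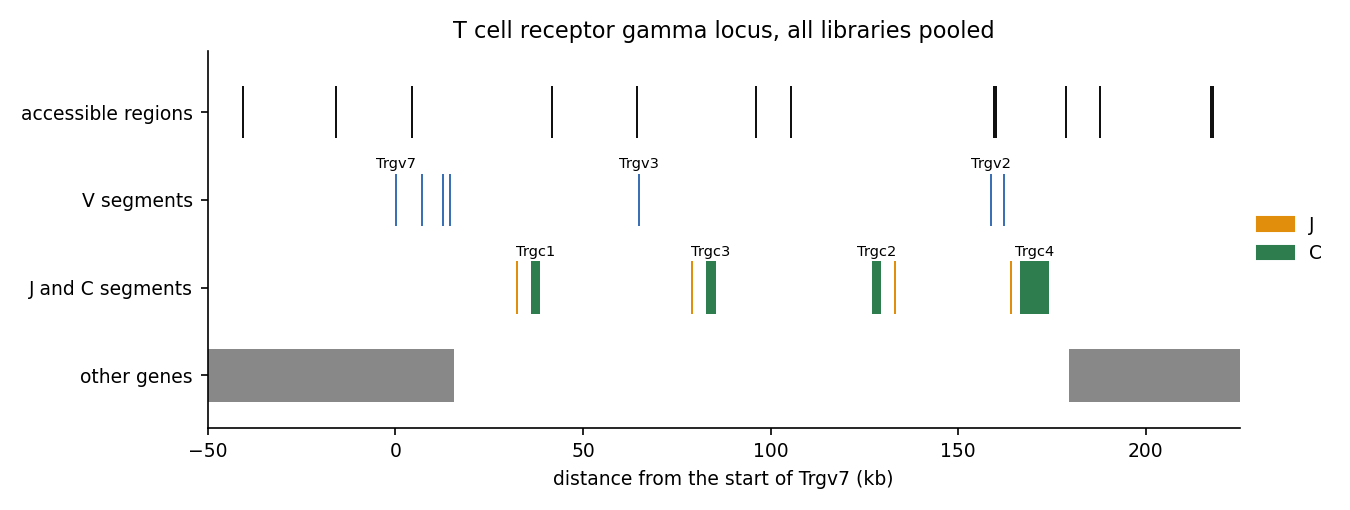
Map of the gamma locus with 50 kb on either side. The x axis is the distance from the start of Trgv7 in kb, and bars are accessible regions of the pooled list, segments, and protein-coding or long noncoding genes, drawn at least 0.5 kb wide; the 12 regions lie between the segments and in the flanks, and none lies over a V, J or C segment.

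The widest regions around the gamma locus lay in its upper flank. Above Trgc4, a region of 561 bp (19356416 to 19356976) lay within 1 kb of the lower end of Stard3nl, which encodes a late endosomal membrane protein, and one of 496 bp lay inside that gene. The region of 1004 bp (19395230 to 19396233) covered the upper end of Stard3nl and the promoter of Gm40827 shown above. Below Trgv7, regions of 222 and 282 bp lay over Amph and Gm31887. The 4 regions of 12 at or above the median width of the whole list included those 3 above Trgc4 and the one between Trgv7 and Trgv4.

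Other receptor loci give values for the same measure. Of V segments not classed as pseudogenes, 29.8% of 114 at the alpha locus (34 segments, 95% exact interval 21.6 to 39.1%) and 34.2% of 120 at the immunoglobulin heavy chain locus (41 segments, 25.8 to 43.4%) had a region within 1 kb. The beta value, 45.5%, was above both, with an interval of 24.4 to 67.8% from 22 segments, and the differences were not tested. With pseudogenes counted the shares were close: 28.6% of 35 beta, 26.9% of 130 alpha and 26.2% of 183 heavy chain V segments. Of V segments not classed as pseudogenes, 1 of 5 at the delta locus and 2 of 7 at the gamma locus had a region within 1 kb. Among J segments the values were 9 of 14 for beta, 12 of 60 for alpha, 0 of 4 for gamma, 0 of 2 for delta and 0 of 4 for the heavy chain. Neighbouring beta J segments share regions, so these counts also depend on how closely segments lie and are no measure of accessibility per segment. Trac, the alpha constant segment, had a region inside it, while Trdc, the delta constant segment, was 13.3 kb from the nearest. Joining can remove DNA between segments at receptor loci, and copy number here is not known. A segment without a region, such as Trdc, is therefore not shown to be less accessible.

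Of 24 other genes of receptor assembly, 21 had a region within 1 kb of the gene, beside the 67.6% of protein-coding genes. They included Cd3d, Cd3e, Cd3g and Cd247, which encode the signalling chains of the receptor complex, with 3, 2, 1 and 11 regions. They also included Lig4, Xrcc5, Xrcc6 and Prkdc of the DNA end-joining machinery with 2, 1, 2 and 2, and Runx1 and Ets1, factors that bind receptor gene enhancers, with 24 and 20. Many of these genes are long and so meet more regions by length. The 3 without one were Rag1, which encodes the catalytic recombinase subunit (8.45 kb to the nearest region), Ptcra, which encodes the pre-receptor alpha chain of thymocytes (3.13 kb), and Trdc. Rag2 had 1 region and Dntt, which encodes the enzyme that adds bases at junctions, had 3, none of them at a gene end.

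Of the markers of naive CD4+ T cells that were counted, 14 of 14, among them Cd4, Ccr7 and Lef1, had a region within 1 kb of the gene, beside 67.6% of protein-coding genes. So did all 6 CD8 T cell markers, including Cd8a and Cd8b1, 6 of 8 gamma delta T cell markers, 3 of 5 markers of immature thymocytes, 5 of 7 myeloid markers, 4 of 7 B cell markers and 2 of 5 natural killer cell markers. The shares of the gamma delta, thymocyte, myeloid and B cell lists are near that of protein-coding genes and are no result about those cells. The CD8 and natural killer lists, of 6 and 5 genes, are too short to give one either. Some markers are long genes that meet more regions by length, such as Foxp1 of the naive CD4+ list, 597 kb long with 52 regions. The gamma delta markers without one were the segments Trgc1 and Trdc, and the B cell markers without one were Cd79a, Cd79b and Ms4a1. A listed region is not a level of expression, and it does not tell open chromatin in a few cells from open chromatin in all. A pooled list cannot give the share of other cell types. Their part in the regions of both loci was not tested.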

How the data were processed

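The authors deposited 1 list of accessible regions for the series, with 3 columns (sequence name, start, end) and no count, score or library; per the labels it belongs to all 4 libraries (2 WT, 2 DDX55 KO). Per the submitters' processing notes, the tools were MACS3 3.0.0b1, Bowtie2 2.5.08, fastp 0.12.4 and SAMtools 1.15.1, on mm10. The sources do not give settings, the shift for the transposase, the handling of duplicate and multiply fitting reads, or the way libraries were joined. Depth is unknown.

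Starts were converted to 1-based positions. A segment counted as near a region when at least 1 bp of a region lay within 1 kb of its annotated bounds; distance is the number of bases between them. Shares have 95% exact (Clopper-Pearson) intervals. Backgrounds were all other genes, other genes of 280 to 800 bp, protein-coding genes, and consecutive autosomal windows of the length of each locus with flanks, with assembly gaps unmasked. The distance and call steps were tested on simulated data. The named items are all D, J and C segments, all segments with a region, V segments by the ends of the arrays, genes in or beside the loci, and a list of receptor assembly genes; members and lists were chosen with earlier results of these data known, and other V segments and the promoters shown were chosen after their values were seen. Python 3.11.15, numpy 2.4.6 and scipy 1.17.1 were used. Some planned marker genes are not reported here and were left out of the marker counts. Alternatives changed the window, the flank, the regions and the segments counted.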

Additional observations from a re-analysis of the deposited data

How the results depend on the processing

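The share of beta segments near a region, 39.6%, was 24.5% when a region had to overlap the segment itself and 54.7% with 2 kb on either side. Under the 6 other settings it stayed between 30.2 and 51.3%, within its 95% interval; the upper value was without pseudogenes. The gamma share, 13.3%, was 0% with overlap of the segment itself, 0% with 200 bp on either side and 0% with regions at least as wide as the median of the list; it was 13.3 or 20% under the other settings. The density of the gamma locus, 4.37 regions per 100 kb, was 1.46 with regions at least as wide as the median. Other flanks and joining of regions at most 500 bp apart left it at 3.47 to 4.02. The density of the beta locus, 3.26, ranged from 2.22 to 3.60 over its alternatives. No paired analysis was possible because the list carries no value per library, and for the same reason no replicate could be left out. The gamma locus holds no annotated pseudogene segment, so leaving pseudogenes out gave no value there. Depth is unknown, so a segment without a region is one where none was listed, not one shown to be closed.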
